A study of Bos taurus with 14 samples.

Results

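The miR-148 and miR-152 family of cattle was taken as the 3 miRNA names bta-miR-148a, bta-miR-148b and bta-miR-152, out of 932 names found in the deposited libraries. Members were chosen by name alone, and all 3 were listed with reads in each of the 14 libraries. The family is defined by a shared seed, the stretch near the 5′ end of a mature miRNA that pairs with its targets, and its mature members come from the 3′ arm of their hairpins. Members of the family are known for repressing the maintenance DNA methyltransferase DNMT1, miR-148a is further known for a role in B-cell tolerance, and miR-148a is among the abundant miRNAs of bovine milk.

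In the coordinates of the files, on the UMD3.1 build, mature bta-miR-148a lies at chr4:70414294-70414315 on the plus strand. Mature bta-miR-148b lies at chr5:25849817-25849838 on the minus strand, and mature bta-miR-152 at chr19:39081217-39081238 on the plus strand. Each of these spans is 22 bases long. Whether the members were captured and counted equally well was not tested, so comparisons between members are of reads and not of molecules. In the RefSeq gene table, which is on another build (ARS-UCD2.0) and was used for gene order only, MIR148B lies inside COPZ1 and MIR152 inside COPZ2, both coding for zeta subunits of the coatomer that coats Golgi vesicles, whereas MIR148A lies between the coding genes NFE2L3 and NPVF.

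Plasma and blood leucocytes came from non-lactating, ruminally cannulated Holstein cows that first received a forage diet without concentrate (FD) and then a high-grain diet with 65% concentrate (HG), of which the first week was sequenced. Plasma gave 8 libraries, from cows 1 to 4 on both diets, and leucocytes gave 6, from cows 1, 3 and 4 on both diets. HG always followed FD in the same animals, so diet and time cannot be told apart. Leucocytes were taken as the buffy coat, and the 2 sample types were extracted with different kits.

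Reads assigned to miRNAs numbered 376589 to 4464702 per library in plasma and 21764578 to 66070770 in leucocytes, so sample type, extraction kit and depth cannot be told apart. Leucocyte libraries carried the leucocyte marker miRNAs (miR-142, miR-150, miR-155, miR-223 and miR-342) at 2.99 to 4.80% of assigned reads, against 2.13 to 3.13% in plasma. Red-cell markers such as bta-miR-451 and bta-miR-486 made up 34.5 to 46.8% of assigned reads in leucocytes and 6.62 to 19.7% in plasma. The liver marker bta-miR-122 made up 0.517 to 6.17% of assigned reads in plasma and at most 0.00757% in leucocytes.

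Levels are given as RPM, reads per 1000000 reads assigned to miRNAs, with each read counted in full. bta-miR-148a had the most reads of the members in 14 of 14 libraries. In plasma on FD, bta-miR-148a stood at 1893, 3132, 5277 and 3112 RPM in cows 1 to 4, and on HG at 6166, 2858, 2905 and 4611. In leucocytes of cows 1, 3 and 4 it stood at 2313, 2637 and 1931 RPM on FD and at 1977, 1971 and 1603 on HG. The groups overlapped for this member: the FD and HG ranges crossed in both sample types, and the lowest plasma library lay below the highest leucocyte library.

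bta-miR-148b was at 579, 188, 1226 and 254 RPM in plasma of cows 1 to 4 on FD, and at 1381, 773, 834 and 963 on HG. Cows 2 and 4 on FD were the lowest of the 8 plasma libraries. In leucocytes it was at 1098, 1036 and 903 RPM on FD and at 858, 1068 and 914 on HG, a narrow range within which the diets overlapped. The plasma values ran from below to above the leucocyte range.

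bta-miR-152 was at 141, 592, 130 and 303 RPM in plasma on FD, and at 232, 165, 411 and 325 on HG. Cow 2 had the highest value on FD and the lowest on HG, so its plasma libraries stood at the opposite ends of their groups. In leucocytes bta-miR-152 was at 31.7, 46.6 and 50.2 RPM on FD and at 25.1, 36.6 and 33.7 on HG. Every plasma library was above every leucocyte library for this member. With a mean of 283 ± 108 RPM on HG and 291 ± 215 on FD (SD, n = 4 each), the 2 plasma groups did not differ beyond their spread.

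**Figure D1:**
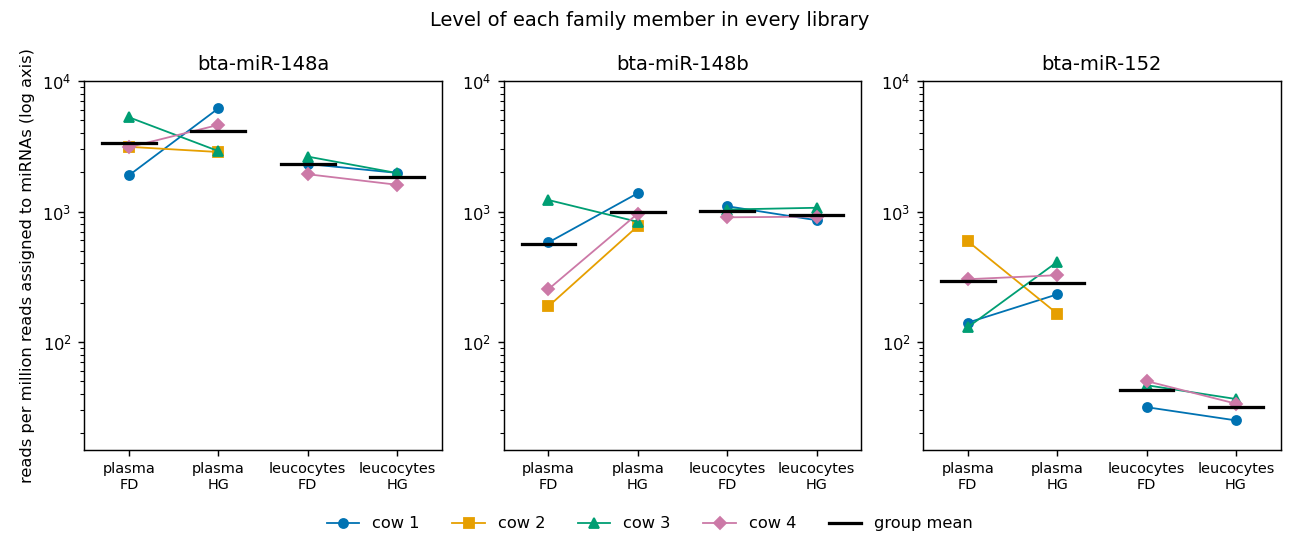
RPM (reads per 1000000 reads assigned to miRNAs, log axis) of bta-miR-148a, bta-miR-148b and bta-miR-152 in each library, grouped by sample type and diet, with points of the same cow joined and black bars for group means. bta-miR-152 is at 130 to 592 in plasma and 25.1 to 50.2 in leucocytes, while the other two members overlap between the sample types.

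The order of the 4 groups by mean level differed between members. For bta-miR-148a the means fell from plasma on HG (4135 ± 1581 RPM, SD, n = 4) through plasma on FD (3353 ± 1407, n = 4) and leucocytes on FD (2294 ± 353, n = 3) to leucocytes on HG (1850 ± 214, n = 3). For bta-miR-148b the means of leucocytes on FD (1012 ± 99.7), plasma on HG (988 ± 274) and leucocytes on HG (947 ± 109) lay within an SD of each other, and plasma on FD was lowest and most variable (561 ± 475). For bta-miR-152 the means of plasma on FD and HG, given above, were followed by leucocytes on FD (42.8 ± 9.83) and leucocytes on HG (31.8 ± 5.98). Neighbours in each order overlapped in their single values, except plasma on HG and leucocytes on FD for bta-miR-152.

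The fewest reads behind a value were the 53 reads of bta-miR-152 in the shallowest library, plasma of cow 1 on FD, whose level of 141 RPM had an exact (Clopper-Pearson) 95% interval of 105 to 184. For bta-miR-148a in leucocytes of cow 1 on FD, with 152852 reads, the interval was 2302 to 2325 RPM. A count of 3 reads corresponded to 0.672 to 7.97 RPM in plasma and 0.0454 to 0.138 in leucocytes, so all members stood above it in all libraries. Intervals and floors cover counting error only, since reads were not collapsed to molecules.

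In each library bta-miR-148a was built from the most distinct read sequences and bta-miR-152 from the fewest, with bta-miR-148b equal to bta-miR-152 in plasma of cow 2 on FD. The range was 22 to 72 distinct sequences for bta-miR-148a in plasma libraries and 140 to 290 in leucocyte libraries, 10 to 32 and 99 to 212 for bta-miR-148b, and 6 to 17 and 28 to 46 for bta-miR-152. Ranked by reads among bovine names, bta-miR-148a held places 36 to 72 in plasma and 41 to 59 in leucocytes, and bta-miR-148b places 70 to 75 in leucocytes. The median place of bta-miR-148b in plasma was 98.5, and that of bta-miR-152 was 131.5 in plasma and 160.5 in leucocytes.

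The counts used for the tests divide a read among all names to which it maps. Of the 932 names, 299 had the same reads as another name in every library, so the numbers and shares of names called include some miRNAs more than once. bta-miR-148a shared its reads with the human homologue name hsa-miR-148a-3p in each library, so its divided count was 49.9 to 50% of its reads, while bta-miR-148b kept 98.4 to 100% and bta-miR-152 99.1 to 100%. A family sum on the divided scale therefore understates the family and gives bta-miR-148a less weight. Counted in full, the family stood at 4206 ± 1713 RPM in plasma on FD and 5406 ± 1830 on HG (SD, n = 4). In leucocytes it stood at 3349 ± 425 RPM on FD and 2829 ± 264 on HG (n = 3). The sum of the 3 members on the divided scale was 0.334 ± 0.140% of all miRNA counts in plasma on FD and 0.444 ± 0.161% on HG (SD, n = 4), with a mean difference between HG and FD of 0.110 ± 0.272 percentage points, higher in 3 of 4 cows (two-sided exact test over sign flips of the cows, p = 0.625, with 0.125 the smallest that 4 cows allow). Without cow 1 the mean difference was -0.00182 percentage points. In leucocytes the family made up 0.258 ± 0.0274% on FD and 0.221 ± 0.0203% on HG (n = 3), lower on HG in 3 of 3 cows with a difference of -0.0370 ± 0.0141 percentage points, for which the exact sign-flip test gave p = 0.25, the smallest that 3 cows allow.

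The make-up of the family separated the sample types. Of the undivided reads of the 3 members, bta-miR-148a held 70.01 to 84.8% in plasma and 62.9 to 70.9% in leucocytes. bta-miR-148b held 4.80 to 22.2% in plasma and 27.9 to 35.8% in leucocytes, without overlap, and bta-miR-152 held 1.96 to 15.1% in plasma and 0.877 to 1.74% in leucocytes, also without overlap. In plasma of cow 2 on FD, bta-miR-152 (15.1%) exceeded bta-miR-148b (4.80%), and in plasma of cow 4 on FD it did so as well (8.26% against 6.91%). In the other libraries bta-miR-148b was the second member.

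**Figure D2:**
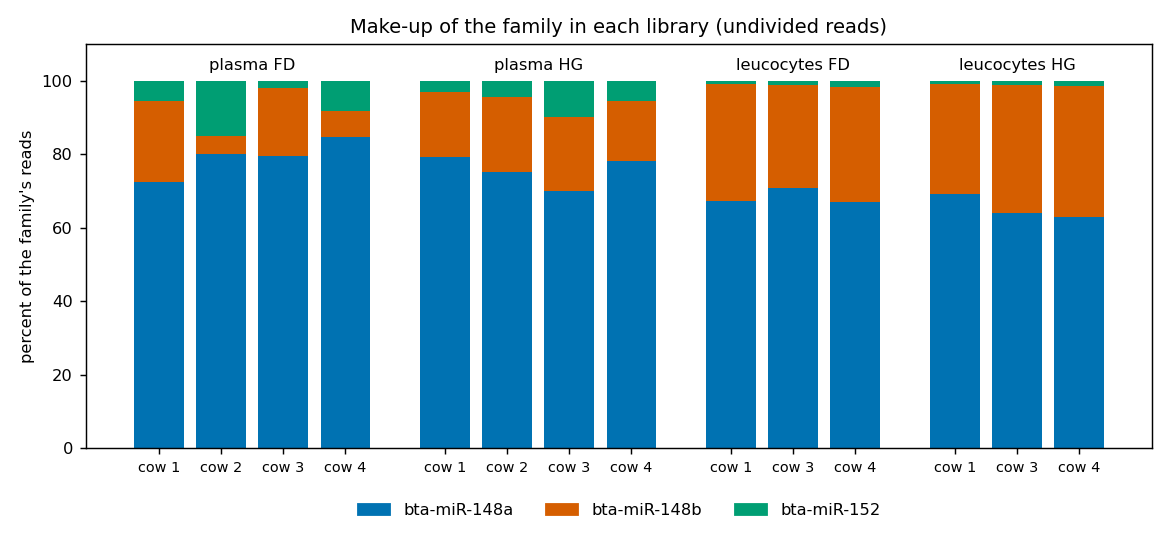
Share of the family's undivided reads (percent) held by each member in each of the 14 libraries, ordered by sample type, diet and cow. bta-miR-148b takes 27.9 to 35.8% in leucocytes and 4.80 to 22.2% in plasma, and bta-miR-152 reaches 15.1% in plasma of cow 2 on FD.

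The opposite arm of the miR-148a hairpin was listed only under its human homologue name, hsa-miR-148a-5p, at chr4:70414256-70414277 of UMD3.1. It had 8, 11, 4 and 320 reads in plasma of cows 1 to 4 on FD and 9, 9, 10 and 43 on HG, and the 320 reads of cow 4 on FD came from 1 distinct sequence. In leucocytes it had 752, 742 and 381 reads on FD and 620, 730 and 420 on HG. The main arm exceeded it by 105- to 203-fold in leucocytes and by 30.1- to 3059-fold in plasma, so the arm ratio was far more variable in plasma.

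To ask whether HG feeding changed the family in plasma, log2 fold changes were fitted across all names with cow and diet as terms. None of the 3 members passed the test in plasma, nor did any other of the 536 names tested (0% of names, edgeR's quasi-likelihood test at an adjusted p under 0.05), against 46 names at an unadjusted p under 0.05 and 12 with DESeq2. In RPM, bta-miR-148b on HG was 2.39-, 4.12-, 0.680- and 3.80-fold its FD level in cows 1 to 4, and its fitted log2 fold change was 0.86 (SE 0.69, 95% interval -0.71 to 2.42, edgeR adjusted p = 0.896). bta-miR-148b, the member with the largest fitted value, was thus higher in 3 of 4 cows, with an interval that includes no change. Its fitted value was above 0 in all 13 settings tried, from 0.46 to 1.53.

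For bta-miR-148a in plasma the HG level was 3.26-, 0.913-, 0.551- and 1.48-fold the FD level in cows 1 to 4, higher in 2 of 4 cows. Its fitted log2 fold change was -0.15 (SE 0.73, 95% interval -1.86 to 1.55, edgeR adjusted p = 0.96). For bta-miR-152 the HG level was 1.65-, 0.279-, 3.17- and 1.07-fold the FD level, and the fitted value was -0.19 (SE 0.78, -1.97 to 1.60, edgeR adjusted p = 0.96), although 3 of 4 cows were higher on HG. The sign of both values depended on the settings: scaling by library size alone gave 0.31 for bta-miR-148a and 0.21 for bta-miR-152, and leaving out cow 2 gave 0.26 and 0.63. Leaving out cow 3 gave 0.45 for bta-miR-148a. That scaling moved the median of all names tested in plasma from 0.26 to 0.64, and under both scalings these members lay below the median of all names while bta-miR-148b lay above it.

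In leucocytes the same fit was narrower. The diet fits in plasma and in leucocytes drew their spread mostly from all names together. Their intervals and p therefore do not measure the spread among the cows for a single member alone. bta-miR-148a was lower on HG in 3 of 3 cows, at 0.855-, 0.747- and 0.830-fold its FD level in RPM in cows 1, 3 and 4, with a fitted log2 fold change of -0.31 (SE 0.12, 95% interval -0.56 to -0.05). bta-miR-152 was also lower in 3 of 3 cows, at 0.792-, 0.784- and 0.671-fold, with a fitted value of -0.42 (SE 0.16, -0.77 to -0.07). Neither passed the threshold, both having an edgeR adjusted p of 0.222, and 14 of the 779 names tested passed (1.8%), 3 higher (0.385%) and 11 lower (1.41%) on HG. Scaling by library size split the calls into 1 higher and 11 lower. The fitted values of both members were below 0 in all 12 settings tried, from -0.35 to -0.20 for bta-miR-148a and from -0.47 to -0.37 for bta-miR-152, whose lowest adjusted p was 0.0534 with DESeq2. The number of names called rested on single cows, being 0 without cow 3 and 111 without cow 4.

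On HG, bta-miR-148b in leucocytes was at 0.781-, 1.03- and 1.01-fold its FD level, and its fitted log2 fold change was -0.10 (SE 0.13, 95% interval -0.38 to 0.17, edgeR adjusted p = 0.793), or 0.0776 without cow 1. Of the 6 leucocyte markers, bta-miR-142-3p was lower on HG (log2 fold change -0.61, SE 0.12, edgeR adjusted p = 0.0352) and the other 5 did not pass. Of these, bta-miR-223 (0.16) and bta-miR-342 (0.15) were fitted above 0. From FD to HG the summed level of the 6 markers in leucocytes fell from 4.29 to 3.51% in cow 1 and from 4.77 to 2.99% in cow 4. In cow 3 it rose from 4.04 to 4.80%, so the cows did not move together. All 6 markers had reads in each library. Whether the lower bta-miR-142-3p is linked to the lower bta-miR-148a and bta-miR-152 values was not tested. In such bulk samples fewer cells of a type and less RNA per cell cannot be told apart.

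The difference between the diet effects was tested in a fit over all 14 libraries. The diet effect in plasma minus that in leucocytes was 0.84 (SE 0.80) on the log2 scale for bta-miR-148b, 0.14 (SE 0.93) for bta-miR-152 and 0.05 (SE 0.87) for bta-miR-148a, each with an edgeR adjusted p of 1. No name passed among the 797 tested (0%), against 93 at an unadjusted p under 0.05 and 19 with DESeq2. Without cow 1 the values of bta-miR-148a and bta-miR-152 were -0.40 and -0.14, and without cow 3 that of bta-miR-152 was -0.27.

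**Figure D3:**
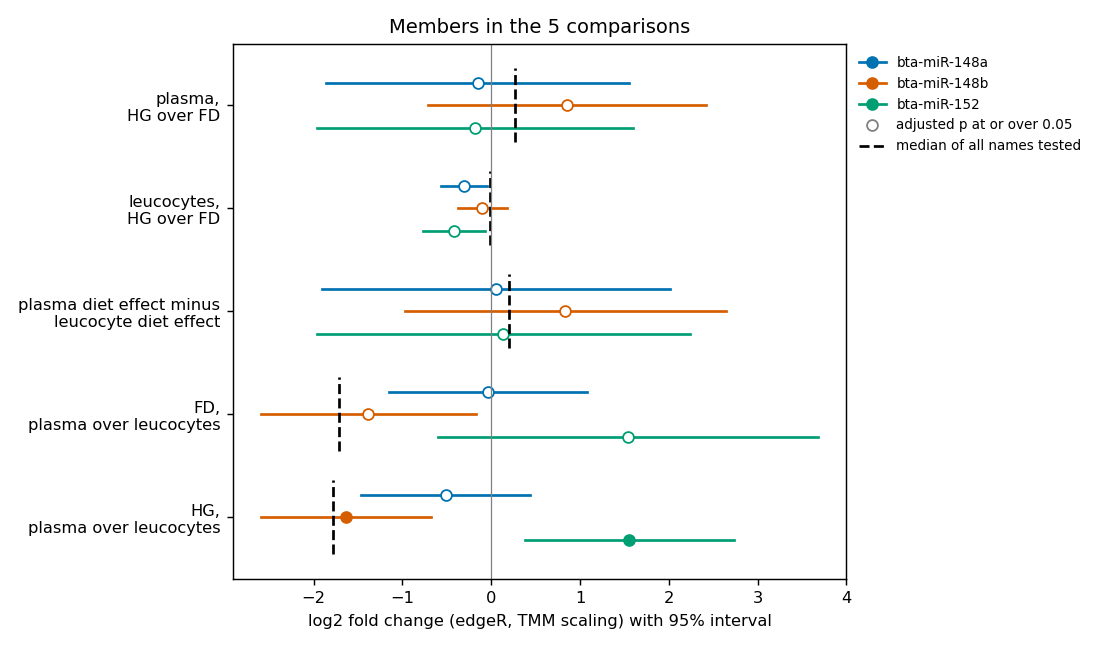
Fitted log2 fold changes (x axis) of the 3 members in the 5 comparisons (y axis), with 95% intervals, filled points where the edgeR adjusted p is under 0.05 and dashed lines at the median of all names tested. Both filled points belong to plasma over leucocytes on HG, where bta-miR-148b is at -1.64 and bta-miR-152 at 1.56, and the plasma diet intervals are much wider than those of leucocytes.

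Plasma was next compared with leucocytes assigned to the same cows within a diet, to give each member's place in the 2 compartments. On HG, bta-miR-152 was higher in plasma by 9.25-, 11.2- and 9.65-fold in RPM in cows 1, 3 and 4, with a fitted log2 fold change of 1.56 (SE 0.60, 95% interval 0.39 to 2.73, edgeR adjusted p = 0.0263). bta-miR-148b had a fitted value of -1.64 (SE 0.49, -2.59 to -0.68, edgeR adjusted p = 0.00429), lower in plasma, and bta-miR-148a of -0.51 (SE 0.48, edgeR adjusted p = 0.371). So 2 of 3 members passed in opposite directions, in a comparison in which 316 of 729 names did (43.3%), 74 higher (10.2%) and 242 lower (33.2%) in plasma. Both calls were lost when any 1 cow was left out: the adjusted p then ran from 0.0531 without cow 3 to 0.214 without cow 4 for bta-miR-152, and from 0.0986 without cow 3 to 0.147 without cow 1 for bta-miR-148b. The fits by sample type likewise drew their spread mostly from all names together. Their intervals and p therefore do not measure the spread among the cows for a single member.

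The directions on HG depended on the scaling, except that of bta-miR-152. With library sizes alone the fitted values on HG were 3.52 for bta-miR-152, 0.32 for bta-miR-148b and 1.44 for bta-miR-148a (edgeR adjusted p = 0.0122), and the calls over all names split into 176 higher and 31 lower. The scaling moved the median of all names on HG from -1.78 to 0.19, so relative to that median bta-miR-152 was higher by 3.34 on the main scale and by 3.33 with library sizes. bta-miR-148b lay 0.15 and 0.13 above the median and bta-miR-148a 1.27 and 1.25 above it, but with at least 10 counts in every library they lay at -1.13 and -0.0123 relative to it. bta-miR-148b was also below the median without the cow block (-0.37) and without cow 1 (-0.19). In RPM bta-miR-148b was at 1.61-, 0.780- and 1.05-fold its leucocyte level and bta-miR-148a at 3.12-, 1.47- and 2.88-fold.

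On FD no member passed, where 141 of 743 names did (19%), 58 higher (7.81%) and 83 lower (11.2%) in plasma, or 77 higher and 19 lower with library sizes alone. bta-miR-152 was higher in plasma of each cow, by 4.44-, 2.78- and 6.04-fold in RPM, with a fitted log2 fold change of 1.54 (SE 1.09, 95% interval -0.60 to 3.68, edgeR adjusted p = 0.29). bta-miR-148b was at 0.527-, 1.18- and 0.281-fold its leucocyte level and was fitted at -1.38 (SE 0.62, edgeR adjusted p = 0.0874), and bta-miR-148a at -0.04 (SE 0.57, edgeR adjusted p = 0.954). The fitted value of bta-miR-152 was above 0 in all 12 settings tried on each diet, from 0.93 to 2.26 on FD and from 1.47 to 3.52 on HG. For bta-miR-148b, scaling by DESeq2-type size factors gave -1.66 on FD with an adjusted p of 0.0405, and keeping names with at least 10 counts in every library gave -1.99 with an adjusted p of 0.00363. On the main scale and with those size factors, bta-miR-148b lay 0.33 above the median of all names on FD. With at least 10 counts in every library it lay at -1.85 relative to that median, and it was above the median in 9 of 12 settings. The red-cell share given above was lower in plasma, and its part in the sample type differences was not tested.

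A ratio between members within a library does not depend on the scaling. Counting reads in full, the ratio of bta-miR-148a to bta-miR-148b was 3.27, 16.7, 4.31 and 12.3 in plasma of cows 1 to 4 on FD and 4.46, 3.70, 3.49 and 4.79 on HG. In leucocytes of cows 1, 3 and 4 it was 2.11, 2.55 and 2.14 on FD and 2.31, 1.84 and 1.75 on HG. All 8 plasma ratios were above all 6 leucocyte ratios, and the wide spread in plasma came from cows 2 and 4 on FD.

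Over the 3 cows with both sample types, and averaging their diets, the log2 ratio of bta-miR-148a to bta-miR-148b was higher in plasma than in leucocytes by 1.21 ± 0.68 (SD over cows), in 6 of 6 pairs of libraries. The ratio of bta-miR-148b to bta-miR-152 was lower in plasma by a log2 value of -3.06 ± 0.68 in 6 of 6 pairs: reads in full gave log2 ratios of -1.66 to 3.24 in plasma and 4.17 to 5.12 in leucocytes, without overlap. The ratio of bta-miR-148a to bta-miR-152 was lower in plasma by -1.85 ± 0.15 on the log2 scale in 6 of 6 pairs, from 5.29 to 40.7 in plasma and from 38.5 to 78.9 in leucocytes, so that its ranges overlapped through plasma of cow 3 on FD alone. Averaging the diets hides a wider spread of this last ratio. Its single pairs ran from -2.93 in cow 3 on HG to -0.48 in cow 3 on FD. Single pairs ran from 0.64 to 2.52 for the first ratio and from -4.44 to -1.24 for the second. For each of these ratios the exact sign-flip test returned p = 0.25, which 3 cows cannot go below. Leaving out each cow moved the diet-averaged means within 0.82 to 1.42, -3.32 to -2.68 and -1.92 to -1.77.

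**Figure D4:**
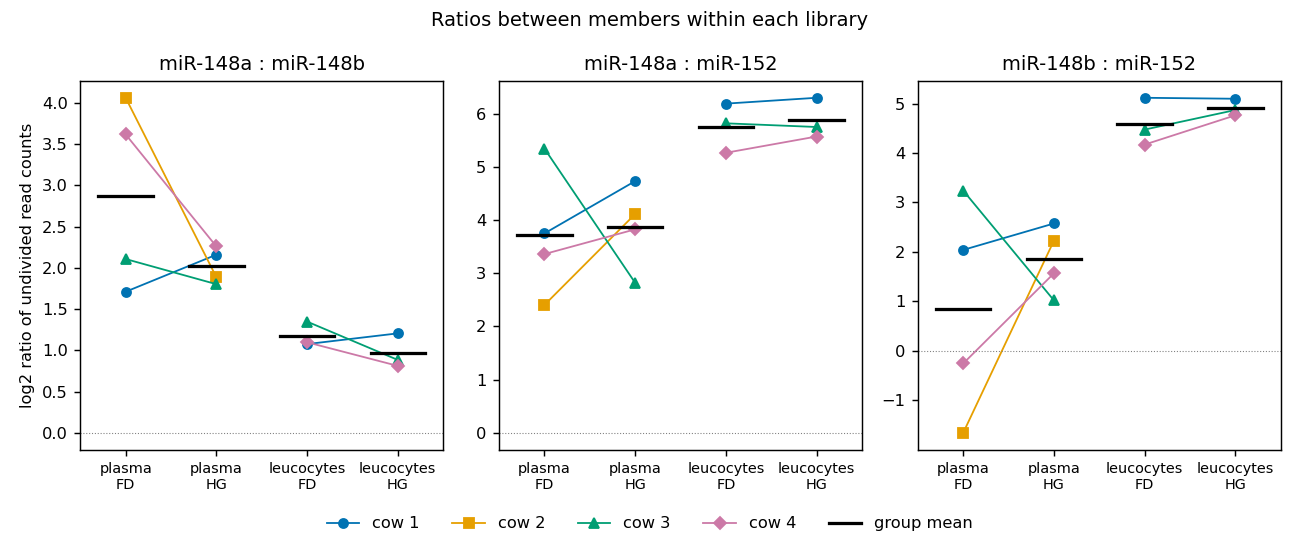
Log2 ratio of undivided reads (y axis) between members within each library, grouped by sample type and diet, with points of the same cow joined and black bars for group means. The miR-148a to miR-148b ratio is above the leucocyte values in all 8 plasma libraries, and the miR-148b to miR-152 ratio is below them in all 8.

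Within plasma the ratios did not move in one direction with diet. The log2 ratio of bta-miR-148a to bta-miR-148b was lower on HG by a mean of -0.84 ± 1.15 (SD, n = 4 cows), lower in 3 of 4 cows (exact test over sign flips, p = 0.375), and its SD among cows was 1.14 on FD and 0.22 on HG. The ratio of bta-miR-148b to bta-miR-152 differed by 1.002 ± 2.55 (exact p = 0.5) and that of bta-miR-148a to bta-miR-152 by 0.16 ± 1.86 (exact p = 0.875). Leaving out each cow moved these values from -1.27 to -0.40, from 0.0409 without cow 2 to 2.08 without cow 3, and, for the last ratio, to -0.12 without cow 1 and -0.36 without cow 2. In leucocytes the corresponding differences were -0.21 ± 0.31, 0.32 ± 0.31 and 0.11 ± 0.18 (n = 3, exact p = 0.5 for each), all smaller than or near their spread.

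The 8 other miRNAs listed as reported to act on DNA methyltransferases (bta-miR-29a, bta-miR-29b, bta-miR-29c, bta-miR-143, bta-miR-185, bta-miR-342, bta-miR-126-3p and bta-miR-21-5p) were described beside the family. None of the 8 passed the diet test in either sample type with edgeR, whereas DESeq2 called 6 of the 8 in leucocytes, 5 lower and bta-miR-185 higher on HG, among 36 of 779 names (4.62%), and none in plasma. The list was chosen with earlier results of these data known. With DESeq2 the paper had already called bta-miR-29b, bta-miR-29c and bta-miR-143 lower on HG in leucocytes, so the number called here is not independent of those results. The smallest edgeR p in leucocytes belonged to bta-miR-29b (log2 fold change -0.58, SE 0.15, edgeR adjusted p = 0.093) and bta-miR-21-5p (-0.44, SE 0.11, edgeR adjusted p = 0.093), and in plasma to bta-miR-29a (-0.73, SE 0.50) and bta-miR-29b (-0.79, SE 0.63), with edgeR adjusted p of 0.769 and 0.891. Their median log2 fold change was -0.43 in leucocytes, against -0.02 over all names tested, and -0.29 in plasma, against 0.26. In leucocytes bta-miR-148a was at -0.31, bta-miR-152 at -0.42 and bta-miR-148b at -0.10, while bta-miR-185 of the list was at 0.44 (SE 0.13, edgeR adjusted p = 0.128).

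Between the sample types, 3 of the 8 passed on FD, where 19% of all names did, and 4 of the 8 on HG, where 43.3% did. On FD bta-miR-143 (4.03, SE 0.50) and bta-miR-126-3p (5.14, SE 0.64) were higher in plasma and bta-miR-185 (-1.76, SE 0.58) was lower, and on HG bta-miR-126-3p (4.18, SE 0.53) and bta-miR-143 (3.53, SE 0.54) were higher and bta-miR-185 (-3.59, SE 0.52) and bta-miR-342 (-1.98, SE 0.50) lower. The list had medians of 0.45 on FD and -0.37 on HG, against -1.71 and -1.78 over all names. bta-miR-152, at 1.54 and 1.56, was fitted below bta-miR-143 and bta-miR-126-3p and above the list's medians.

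Of 9 miRNAs reported to act on cholesterol and lipid transport, 8 could be tested for diet in plasma and none passed, with bta-miR-33a (0 to 4 reads on FD and 4 to 73 on HG, edgeR adjusted p = 0.503) and bta-miR-122 (-1.55, SE 1.08, edgeR adjusted p = 0.799) having the smallest p. In leucocytes 2 of 9 were lower on HG, against 1.41% of all names, namely bta-miR-144 (-0.86, SE 0.18, edgeR adjusted p = 0.0352, but 0.403 with DESeq2), which is also a red-cell miRNA, and bta-miR-27a-3p (-0.64, SE 0.13, edgeR adjusted p = 0.0356). The other red-cell markers did not pass with edgeR and went both ways. bta-miR-486 (0.42) and bta-miR-451 (0.32) were fitted above 0, and bta-miR-16b (-0.18) and bta-miR-363 (-0.09) below. The paper had already called bta-miR-27a-3p lower on HG in leucocytes, and the lipid list too was chosen with earlier results known. Between the sample types 4 of 9 passed on each diet, against 19% of all names on FD and 43.3% on HG. On FD, plasma had more bta-miR-122 (8.94, SE 0.61) and bta-miR-27b (1.73, SE 0.45) and less bta-miR-144 (-3.10, SE 0.51) and bta-miR-30c (-1.33, SE 0.48) than leucocytes. On HG, bta-miR-122 (7.42, SE 0.64) was higher, and bta-miR-144 (-3.48, SE 0.53) and bta-miR-30c (-2.30, SE 0.53) were lower. bta-miR-33b also passed on HG, with 0 reads in the 3 plasma libraries and 36 to 87 in leucocytes, a level too low for a fold at the plasma depth. Over the names tested, the medians of this list were -0.06 in plasma and -0.15 in leucocytes for diet, against 0.26 and -0.02 over all names. For plasma over leucocytes they were -0.41 on FD and -1.11 on HG, against -1.71 and -1.78 over all names, and 0.00299 and -0.85 without bta-miR-33b.

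Members differed in the names whose levels ran most like theirs. Over the 8 plasma libraries, among 176 bovine names with a mean of at least 100 counts, log2 CPM of bta-miR-148a was closest to that of bta-miR-151-3p (Pearson r = 0.977), bta-miR-874 (0.976) and bta-miR-330 (0.966). bta-miR-148b was closest to bta-miR-3613a (0.904), bta-miR-218 (0.841) and bta-miR-6119-3p (0.739), and bta-miR-152 to bta-miR-29b (0.830), bta-miR-99a-5p (0.822) and bta-miR-2285k (0.821). Between members the plasma coefficients were 0.561 for bta-miR-148a with bta-miR-148b, 0.417 for bta-miR-148a with bta-miR-152 and -0.397 for bta-miR-148b with bta-miR-152, so no member was among the nearest 3 names of another.

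Over the 6 leucocyte libraries, among 296 names, bta-miR-148a was closest to bta-miR-142-3p (Pearson r = 0.989), the leucocyte marker that was lower on HG, followed by bta-miR-1388-3p (0.979) and bta-miR-2285p (0.978). bta-miR-148b was closest to bta-miR-98 (0.965), bta-miR-6119-3p (0.958) and bta-miR-454 (0.951), and bta-miR-152 to bta-miR-181c (0.927), bta-miR-3613a (0.832) and bta-miR-181d (0.828). Between members the leucocyte coefficients were 0.862 for bta-miR-148a with bta-miR-148b, 0.390 for bta-miR-148a with bta-miR-152 and 0.199 for bta-miR-148b with bta-miR-152. These coefficients describe few libraries that share cows and scaling factors, and they carry no test.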

How the data were processed

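Small RNA of plasma and leucocytes was sequenced as single reads. The authors demultiplexed with bcl2fastq 2.20, trimmed adapters, mapped reads with Bowtie through sRNAbench, allowing mismatches, to UMD3.1 and miRBase, and tested diet with DESeq2. The deposited per-library files give estimated counts (reads divided among all names they map to) and undivided read counts per miRNA name. Deposited normalised signal columns served only to recover library totals, and the series-wide tables were not used. Members of the family resemble each other in sequence, and how many reads could be assigned to the wrong member was not tested.

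Divided counts were rounded to whole numbers, names with at least 10 counts in total were kept, and edgeR 4.0.16 (quasi-likelihood test, robust, TMM) in R 4.3.3 fitted cow and diet, or cow and sample type, over all names with Benjamini-Hochberg adjustment at 0.05. DESeq2 1.42.0 was an alternative. Ratios and shares were compared by exact sign-flip tests over cows, and the counting intervals of levels were computed with scipy 1.17.1. Scripts were tested on simulated data.

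Letters in the leucocyte titles mark the cow on both diets. These letters were matched to the cow numbers of plasma, and this match was not tested. Every comparison of plasma with leucocytes of the same cow rests on it. In plasma the number in the title was taken as the cow, since the study's supplementary numbering gave the same library in 504 of 504 values compared. Deviations of same-cow libraries correlated at 0.339 to 0.575 in leucocytes and at -0.212 to 0.159 in plasma. For libraries of different cows the range was -0.506 to 0.246 in leucocytes and -0.284 to 0.384 in plasma. In plasma, libraries of the same cow were thus no more alike than those of different cows. Depth per library and the precision it gives stand with the results. No miRNA sequence was used here. Members and lists were chosen with earlier results of these data known. The comparisons of ratios between sample types were added after the data were seen. Named miRNAs were the members, their human homologue and opposite-arm names, the 3 names nearest to each member, and from 2 lists of regulators every name that passed, or otherwise the 2 with the smallest p. Markers of blood cells, liver, vessel wall and muscle were also measured.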

Additional observations from a re-analysis of the deposited data

How the results depend on the processing

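Of 339 recomputations, 277 kept direction and side of the threshold, or a count within 1.5 times, 27 reversed direction, 20 counts moved by more, 13 lost the threshold and 2 passed it newly. The 277 include sign-flip results with too few cows to pass 0.05, and counts of 0 names that stayed at 0, so they overstate stability. The cause of the changes below was not tested.

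For the counts of names called, DESeq2 gave 12 for diet in plasma, 36 for diet in leucocytes, 241 for plasma against leucocytes on FD and 19 for the difference of diet effects. For diet in leucocytes, DESeq2-type size factors gave 9, a minimum of 10 counts in every library gave 23 and non-robust fitting gave 7. For plasma against leucocytes on HG, library sizes alone gave 207 and the minimum of 10 counts in every library gave 208. Without the cow block, the replicate pairing of the design, 0 names were called for diet in leucocytes (45 at an unadjusted p under 0.05), and 289 for plasma against leucocytes on FD. No other count moved by over 1.5 times without the block. Leaving out each cow gave 0 to 111 names for diet in leucocytes, 0 to 75 for plasma against leucocytes on FD, and 97 to 113 on HG.

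With library sizes alone, log2 fold changes were 0.31 for bta-miR-148a and 0.21 for bta-miR-152 for diet in plasma, 0.65 for bta-miR-148a and 0.67 for hsa-miR-148a-5p for plasma over leucocytes on FD, and 1.44 for bta-miR-148a and 0.32 for bta-miR-148b on HG. With at least 10 counts in every library, values were 0.18 for bta-miR-148a and 0.10 for bta-miR-152 for diet in plasma, 0.0206 for bta-miR-148a for plasma over leucocytes on HG, and -1.99 for bta-miR-148b on FD. DESeq2-type size factors gave -1.66 for bta-miR-148b on FD. Undivided reads gave 1.501 for bta-miR-152 for plasma over leucocytes on HG (edgeR adjusted p = 0.0653), and -0.00689 for bta-miR-148a for the difference of diet effects. Without the cow block, plasma over leucocytes on FD gave 0.14 for bta-miR-148a and 1.21 for hsa-miR-148a-5p, and the difference of diet effects for bta-miR-152 was -0.25.

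Leaving out each cow gave these ranges. For diet in plasma, bta-miR-148a ran from -0.88 to 0.45, bta-miR-152 from -0.74 to 0.63, the log2 ratio of bta-miR-148a to bta-miR-152 from -0.36 to 1.05 and the family's share from -0.00182 to 0.211 percentage points. For diet in leucocytes, bta-miR-148b ran from -0.18 to 0.0776 and hsa-miR-148a-5p from -0.0457 to 0.24. For plasma over leucocytes on FD, bta-miR-148a ran from -0.55 to 0.0409 and hsa-miR-148a-5p from -1.52 to 1.02. On HG, bta-miR-148a ran from -0.78 to 0.0856, bta-miR-148b from -1.72 to -1.12, bta-miR-152 from 1.47 to 2.195 and hsa-miR-148a-5p from -3.63 to -1.80. For the difference of diet effects, bta-miR-148a ran from -0.40 to 0.59 and bta-miR-152 from -0.27 to 1.08.

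With 3 or 4 cows the sign-flip tests cannot pass 0.05. Plasma libraries are shallower than leucocyte libraries, and plasma of cow 1 on FD, the shallowest, holds the fewest reads of all 3 members.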

Other observations

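Vessel-wall markers bta-miR-126-3p and bta-miR-126-5p together made up 0.229 to 0.543% of assigned reads in plasma and 0.00467 to 0.0206% in leucocytes, and muscle markers 0.0982 to 0.794% and 0.00498 to 0.0249%, with bta-miR-206 at 0 in 4 libraries. Both lists, like bta-miR-152, were higher in plasma, and their part in its level was not tested.

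The opposite arm, hsa-miR-148a-5p, was lower in plasma than in leucocytes on HG (log2 fold change -3.01, SE 1.15, edgeR adjusted p = 0.0258), while its main arm had a value of -0.51 there. This call was lost with library sizes alone (-1.04, adjusted p = 0.604), with DESeq2-type size factors (adjusted p = 0.0975), with no filter on low counts (adjusted p = 0.07) and without any 1 cow (adjusted p from 0.132 to 0.404). In plasma it was fitted lower on HG (-1.49, SE 1.31, edgeR adjusted p = 0.947), with the 320 reads of cow 4 on FD among its few counts.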
